A study of Mus musculus with 11 samples.

Results

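The mature miRNAs of the Clcn5 cluster were examined in mouse spermatogonial progenitor cells (SPCs) with and without Mov10 knockdown. Members were all entries of the small RNA tables named with the stem miR-188, miR-362, miR-500, miR-501, miR-532 or miR-660, whichever arm of the hairpin they came from. The stems miR-188, miR-362, miR-500, miR-501 and miR-532 gave a 5p and a 3p entry each, so that 10 of the 1096 mature miRNAs were members, from 5 hairpins. No entry carried the stem miR-660, and that miRNA was not analysed here. SPCs are Thy1-positive germ cells of mouse pups that are cultured on feeder layers of mitotically inactivated STO cells, which are mouse embryonic fibroblasts. The sample labels give the strain as C57BL/6 and the age as postnatal day 6, whereas the culture description of the RNA-seq samples names B6;129S-Gt(Rosa) 26Sor/J mice aged 6 to 8 days. Both groups were transduced with lentivirus, the control with the vector (Mov10 Vector) and the knockdown with an shRNA against Mov10 (Mov10 knockdown). The paper's methods name shVector and shMov10-832 for the RNA-seq libraries and do not name them again for the small RNA libraries. The cells of origin of a read, germ cell or feeder, are not told apart in such libraries. Each group was 1 small RNA library, so values have no replicate error, and each test below compares the 2 libraries and not the 2 conditions. The small RNA tables hold no Mov10 mRNA, so the depletion was not checked here.

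A miRNA gene is transcribed as a long primary transcript. Drosha cuts a hairpin precursor out of it in the nucleus and Dicer cuts the precursor into a short duplex in the cytoplasm. An Argonaute protein then keeps the strand from the 5′ or the 3′ arm and usually discards the other, and the seed of the kept strand directs it to target mRNAs. When several hairpins lie in 1 intron they can share a primary transcript, but each can still be cut and kept at its own rate. The primary transcript of this cluster was not examined here. Clcn5, the host of this cluster, encodes a chloride/proton exchanger of endosomes. MOV10 is an RNA helicase that associates with Argonaute proteins.

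All 5 hairpins lay on the minus strand of chromosome X in GRCm38 (RefSeq annotation) and within 10815 bp. In the order of transcription they were Mir532 (chrX:7248402-7248497), Mir188 (chrX:7247989-7248056), Mir362 (chrX:7241982-7242046), Mir501 (chrX:7241243-7241351) and Mir500 (chrX:7237683-7237774). Clcn5 spans chrX:7153810-7319358, and the annotation placed no other hairpin inside it. The first hairpin began 70861 bp downstream of the outermost annotated start of the gene. Transcript XM_011247446.3 starts nearer to the hairpins, at chrX:7276899, and which start these cells use was not examined. Of 8 annotated Clcn5 transcripts, 7 held the 5 hairpins together in a single intron, which was intron 2 of NM_001243762.1. The short transcript NM_016691.4 starts downstream of the hairpins and does not contain them. The gaps between neighbours were 345 bp from Mir532 to Mir188, 5942 bp to Mir362, 630 bp to Mir501 and 3468 bp to Mir500, so the cluster had an upstream pair and a downstream trio.

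Mature sequences from RefSeq (GRCm38.p6) matched 9 of the 10 members and are shown 5′ to 3′ with the seed, bases 2 to 8, in capitals, because shared seeds define which members could address the same targets. miR-532-5p is named only. The first pair below shares 1 seed and the second pair another, and the remaining members shown have seeds of their own among the 9. The seed of miR-532-5p was not compared.
miR-500-3p: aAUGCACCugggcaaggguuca
miR-501-3p: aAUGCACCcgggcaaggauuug
miR-362-5p: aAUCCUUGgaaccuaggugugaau
miR-500-5p: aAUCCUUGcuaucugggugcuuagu
miR-501-5p: aAUCCUUUgucccugggugaaa
miR-362-3p: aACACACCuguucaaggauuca
miR-188-5p: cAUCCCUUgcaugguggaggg
miR-188-3p: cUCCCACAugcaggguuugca
miR-532-3p: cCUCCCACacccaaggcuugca

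The sequences fell into related groups that follow the arms. miR-500-3p and miR-501-3p matched at 18 of 22 positions counted from the 5′ end, miR-500-3p and miR-362-3p at 17 of 22, and miR-362-5p and miR-500-5p at 16 of 24. Mir188 and Mir532 formed another group on the 3p side, where miR-188-3p and miR-532-3p shared a run of 8 bases. The longest run shared by any 2 of the 9 sequences was 8 bases. Each of the 10 members had a single locus in the annotation. Among the 908 miRNAs of the tables with a sequence, the only non-member with the seed of a member shown above was miR-329-3p. It shares the seed of miR-362-3p and had 2 control reads and 1 knockdown read.

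Levels are given as TPM, the reads per 1000000 reads of a library without a length correction, with exact Poisson 95% intervals that cover counting error only. The control library had 10518277 reads in the total behind TPM and the knockdown library 3194363, so that 1 read was worth 0.0951 and 0.313 TPM. The members held 10303 control reads and 3593 knockdown reads, 0.107% and 0.129% of all miRNA reads. In the control, miR-532-5p stood far above the rest with 8476 reads and 806 TPM (789 to 823), rank 81 of all miRNAs, and it made up 82.3% of the reads of the cluster. miR-501-3p followed with 779 reads and 74.1 TPM (69.0 to 79.5). The passenger of the leading hairpin, miR-532-3p, had 279 reads and 26.5 TPM (23.5 to 29.8). Those 3 were separated from each other and from the next member by more than counting error.

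Below them, miR-500-3p (206 reads, 19.6 TPM, 17.0 to 22.4), miR-362-5p (200 reads, 19.01 TPM, 16.5 to 21.8) and miR-362-3p (181 reads, 17.2 TPM, 14.8 to 19.9) could not be ordered at this depth. The interval of miR-188-5p (138 reads, 13.1 TPM, 11.0 to 15.5) overlapped that of miR-362-3p but not those of the other two. The last 3 members were near the limit of detection, with 21 reads for miR-501-5p, 16 for miR-188-3p and 7 for miR-500-5p. A difference in their level between the libraries was not detectable.

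**Figure D1:**
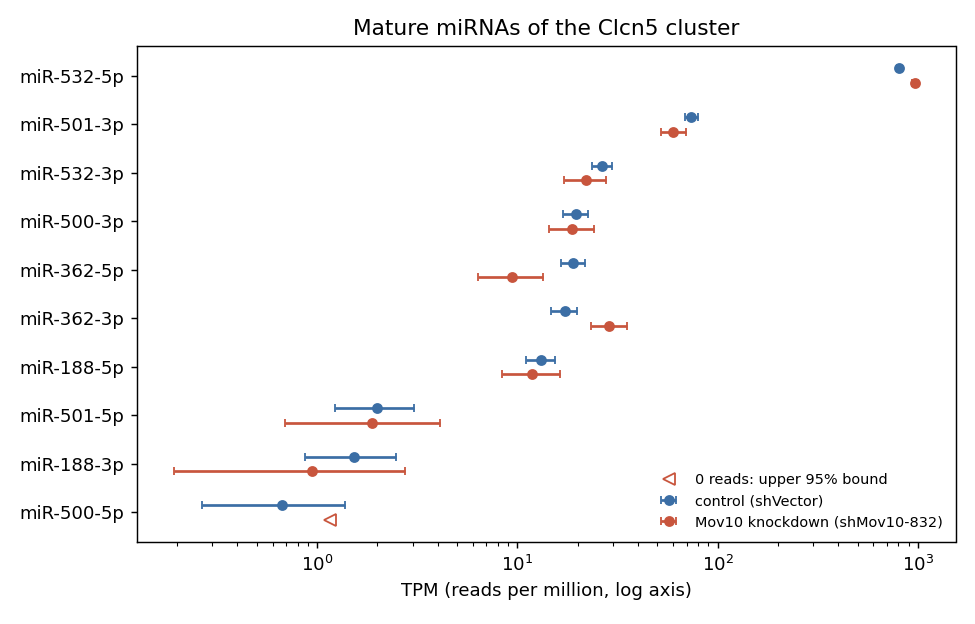
TPM of the 10 members in the control (blue) and Mov10 knockdown (red) library on a log axis, with exact Poisson 95% intervals and 1 library per group. miR-532-5p lies highest in both libraries, and the 2 arms of miR-362 are the only members of the middle range whose intervals separate the libraries in opposite directions.

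In the Mov10 knockdown library the order of the levels was similar (Spearman's rho 0.903 over the 10 members, which share 2 libraries), and the changes of place came mainly from miR-362. miR-532-5p remained first with 3102 reads and 971 TPM (937 to 1006), and miR-501-3p second with 192 reads and 60.1 TPM (51.9 to 69.2). miR-362-3p moved from the sixth to the third place with 92 reads and 28.8 TPM (23.2 to 35.3). miR-362-5p moved from the fifth to the seventh with 30 reads and 9.39 TPM (6.34 to 13.4). Between them, miR-532-3p had 70 reads and 21.9 TPM (17.1 to 27.7), miR-500-3p 60 reads and 18.8 TPM (14.3 to 24.2), and miR-188-5p 38 reads and 11.9 TPM (8.42 to 16.3), each overlapping its neighbour in the order. miR-501-5p had 6 reads, miR-188-3p 3, and miR-500-5p none. The Poisson upper bound for 0 reads was 1.15 TPM and the limit of 3 reads that a count of 0 allows was 0.939 TPM, both above the control level of 0.666 TPM. No fold is given for miR-500-5p.

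The largest change of a well-measured member was that of miR-362, whose arms went in opposite directions. miR-362-3p was 1.67 times as high in the Mov10 knockdown library as in the control (95% interval 1.29 to 2.16, adjusted p = 0.000422, exact binomial test with Benjamini-Hochberg adjustment over all 1096 miRNAs). miR-362-5p was 0.494 times as high (0.325 to 0.727, adjusted p = 0.000505, same exact test). These ratios are relative to each library's total. Dividing both libraries by 1 common total only removes the correction for depth and moves every miRNA by -1.72 on the log2 scale, so that by construction miR-362-3p went from 0.74 to -0.97. miR-532-5p rose 1.21-fold (1.16 to 1.26, adjusted p = 1.37e-17, exact binomial test), or 0.27 on the log2 scale, and by the same construction went to -1.45 with 1 common total. Its change was small but the best measured. miR-501-3p was 0.812 times as high (0.689 to 0.952, adjusted p = 0.0297, exact binomial test), and its call was lost when the libraries were scaled by their miRNA reads, by TMM factors or by the median ratio, where the adjusted p was 0.122, 0.800 and 1.

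The ratios of the other members had intervals that included 1. Knockdown over control, they were 0.826 (0.626 to 1.08) for miR-532-3p, 0.959 (0.707 to 1.28) for miR-500-3p, 0.907 (0.616 to 1.31) for miR-188-5p, 0.941 (0.311 to 2.41) for miR-501-5p and 0.617 (0.115 to 2.16) for miR-188-3p. Of the 10 members, 9 were above 1.5 TPM in the higher library. By the log2 ratio of TPM + 0.1, 2 of these were lower over 1.5-fold in the knockdown (miR-362-5p and miR-188-3p, the latter with 3 knockdown reads), and 41.5% of the 607 miRNAs above 1.5 TPM were. A single member, miR-362-3p, was higher over 1.5-fold, against 15.8% of the 607. By the exact binomial test alone, whatever the fold, 2 members were lower (miR-362-5p and miR-501-3p), against 38.7% of the 607, and 2 were higher (miR-362-3p and miR-532-5p), against 18.9%. The median log2 fold change was -0.14 over the 9 members and -0.37 over the 607 miRNAs, and 7 of the 9 were below 0, against 64.4% of the 607.

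Both arms of a hairpin come from 1 precursor, and the ratio of their reads does not depend on the library total. In the control, miR-362 was the only hairpin of the cluster with nearly equal arms, and in the knockdown its 3p arm prevailed. The 5p arm of miR-362 had 52.5% of the hairpin's reads in the control (Wilson 95% interval 47.5 to 57.5%) and 24.6% in the knockdown (17.8 to 32.9%). The 3p-to-5p ratio thus went from 0.905 to 3.07, an odds ratio of 3.38 (exact 95% interval 2.10 to 5.55, adjusted p = 9.48e-07, Fisher's exact test with Benjamini-Hochberg adjustment over 321 hairpins with reads on both arms). The summed level of the hairpin had a ratio of 1.05 (0.853 to 1.30), with 36.2 TPM in the control and 38.2 TPM in the knockdown.

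**Figure D2:**
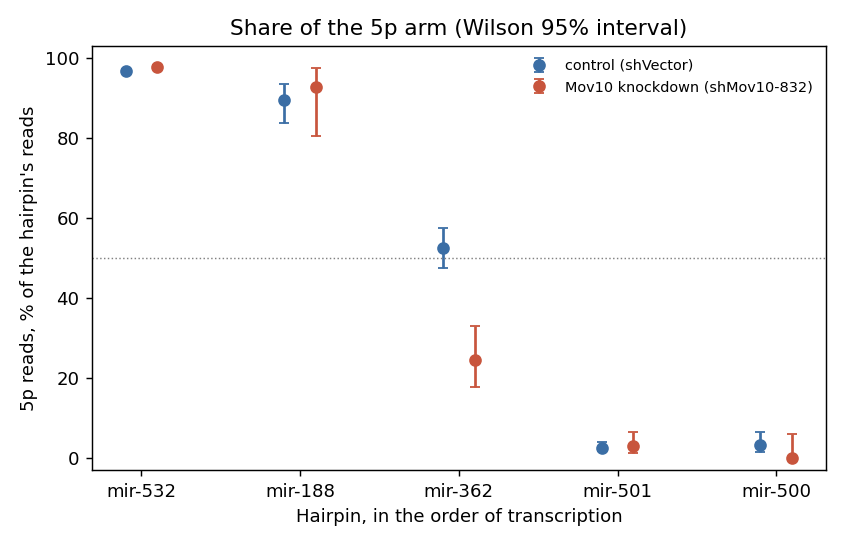
Share of reads from the 5p arm for each hairpin, in the order of transcription, in the control (blue) and Mov10 knockdown (red) library, with Wilson 95% intervals and 1 library per group. mir-362 drops from 52.5% to 24.6%, whereas the other hairpins keep to 1 side of the dotted line at 50% in both libraries.

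The other hairpins had a fixed leading arm. Mir532 and Mir188 used the 5p arm. For miR-532, 96.8% of reads (96.4 to 97.2%) were 5p in the control and 97.8% (97.2 to 98.2%) in the knockdown, a shift of 0.980 percentage points that also passed the test (adjusted p = 0.0322, Fisher's exact test). For miR-188, 89.6% (83.8 to 93.5%) and 92.7% (80.6 to 97.5%) were 5p. Mir501 and Mir500 used the 3p arm instead, with 2.62% (1.72 to 3.98%) and 3.03% (1.40 to 6.45%) of miR-501 reads on the 5p arm. For miR-500, 3.29% (1.60 to 6.63%) of control reads and 0 of 60 knockdown reads were 5p, and the upper Wilson bound of the latter was 6.02%. The differences of miR-188, miR-500 and miR-501 did not pass the test.

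Of all 321 hairpins with reads on both arms, 47 (14.6%) passed the same test, against 2 of the 5 members. Many of the 321 had too few reads to pass. Of the 179 hairpins with at least 10 reads on each arm over both libraries, 52 passed with the adjustment made over these alone. The same 2 members were among the 52, and miR-500 was not among the 179. Among the 151 hairpins with at least 100 reads in each library, the median shift of the 5p share was 0.583 percentage points, the shift of miR-362 was -27.9 points, and the next widest was 24.3 points. The leading arm changed in 4 of these 151 hairpins. miR-362 was singled out here after its values were seen, and its 122 knockdown reads were close to that minimum. With a minimum of 50 reads it was again the widest of 163.

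**Figure D3:**
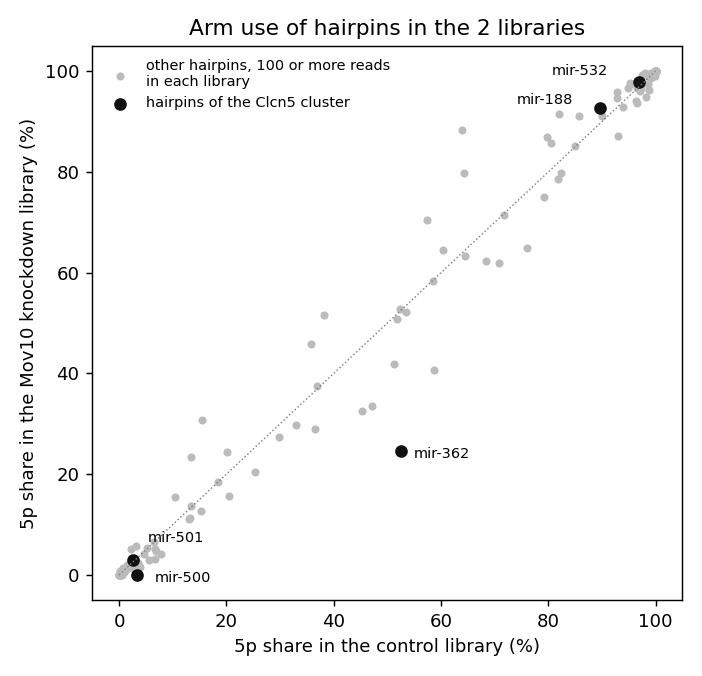
5p share of each hairpin's reads in the control library (x axis, %) against the Mov10 knockdown library (y axis, %), for hairpins with at least 100 reads in each library (grey) and the 5 hairpins of the Clcn5 cluster (black). Most points lie on the dotted line of equal shares, and mir-362 lies 27.9 percentage points below it.

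The seeds give another view of the same reads. miR-501-3p and miR-500-3p together supplied their common seed with 93.6 TPM in the control and 78.9 TPM in the knockdown, a ratio of 0.842 (0.731 to 0.968). Most of these reads were miR-501-3p. The upper bound is -0.046 on the log2 scale. Scaling by miRNA reads, TMM factors or the median ratio moves all miRNAs by 0.07, 0.22 or 0.25, so the interval would then include 1. miR-362-5p and miR-500-5p supplied their common seed with 19.7 and 9.39 TPM, a ratio of 0.477 (0.314 to 0.702), and nearly all of these reads were miR-362-5p.

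With both arms summed, a difference in change between hairpins of the same intron passed the test for mir-532 against mir-501. The other pairs had too few reads to exclude a difference of similar size or, for mir-532 against mir-362, of up to 1.40-fold. The ratio of knockdown to control TPM was 1.19 (1.15 to 1.24) for mir-532, 1.05 (0.853 to 1.30) for mir-362, 0.928 (0.685 to 1.24) for mir-500, 0.877 (0.605 to 1.24) for mir-188 and 0.815 (0.694 to 0.953) for mir-501. These single ratios depend on the library total, and with TMM factors or median ratio scaling the interval of mir-501 would include 1. Of the 10 pairs of hairpins, only mir-532 and mir-501 differed, mir-532 by a 1.46-fold higher ratio (exact 95% interval 1.24 to 1.73, adjusted p = 1.81e-05 over the 10 pairs and 7.82e-06 over all pairs described next, Fisher's exact test). In the tables, 259 pairs of hairpins lay on the same strand with at most 15 kb between them and at least 50 reads each, and 42.9% of them differed. Some of these hairpins were counted by 1 arm only, such as those whose other arm is shared with further loci. Of the 189 pairs with both arms counted for each hairpin, as for the members, 39.2% differed. The ratio between 2 hairpins does not depend on the library total, but the power to see a difference follows the reads, and the members other than mir-532 had only 154 to 800 control reads.

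**Figure D4:**
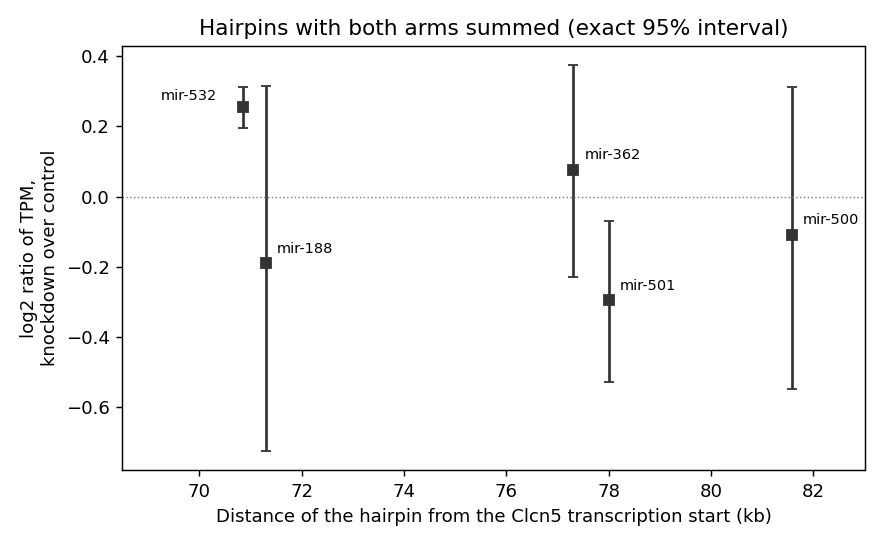
log2 ratio of TPM in the Mov10 knockdown over the control library for each hairpin with both arms summed, with exact 95% intervals. The x axis is its distance from the outermost annotated start of Clcn5 (kb). mir-532, closest to the start, is above 0 and mir-501 is below it, and the intervals of mir-188, mir-362 and mir-500 include 0. TMM factors or median ratio scaling would move all points up by 0.22 or 0.25, and the interval of mir-501, with an upper bound of -0.069, would then include 0.

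The reads did not allow the pairs to be ordered by their distance in the intron. The pair that differed, mir-532 and mir-501, had 7050 bp between them. The ratio of mir-532, 345 bp from mir-188, was 1.36 times that of mir-188 (0.956 to 1.98), and the ratio of mir-362, 630 bp from mir-501, was 1.29 times that of mir-501 (0.991 to 1.68). The ratio of mir-500 was 1.06 times that of mir-188 (0.661 to 1.70), with 10214 bp between them, and that of mir-532 was 1.29 times that of mir-500 (0.959 to 1.75), with 10627 bp between them. The intervals of these last 4 pairs include 1 and reach beyond 1.5-fold. When only the leading control arm of each hairpin was compared, 4 of 10 pairs differed, 3 of them with miR-362-5p. The arms of miR-362 had 200 (5p) and 181 (3p) control reads, so its leading arm was hardly set. These 3 pairs carry the arm shift of miR-362, and no pair with mir-362 differed with both arms summed. The ratio of miR-532-5p was 2.44 times that of miR-362-5p (1.65 to 3.72, adjusted p = 5.58e-06 over the 10 pairs, Fisher's exact test). With both arms summed, mir-532 against mir-362 gave 1.13 (0.916 to 1.40).

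The cluster as a whole had 980 TPM in the control and 1125 TPM in the knockdown, a ratio of 1.15 (1.11 to 1.19). This sum follows miR-532-5p, and the other 9 members together had a ratio of 0.885 (0.799 to 0.978), from 174 to 154 TPM. On the log2 scale the ratio of these 9 was -0.18, with an upper bound of -0.032. Scaling by miRNA reads, TMM factors or the median ratio moves all miRNAs by 0.07, 0.22 or 0.25, so their interval would then include 1. With TMM factors or the median ratio their direction would also turn. The log2 ratio of the whole cluster, 0.20, became 0.42 with TMM factors and, by construction, -1.52 with 1 common total. Of 2 further clusters on chromosome X in the same libraries, the miR-322 cluster, which includes miR-351 and miR-503, had a ratio of 1.09 (1.07 to 1.11) over 13 mature forms. The part of the miR-106a-363 cluster with a locus of its own had 202 and 30 reads over 8 mature forms and a ratio of 0.489 (0.322 to 0.720). The ratio of the Clcn5 cluster was 1.05 times that of the first (1.01 to 1.10) and 2.35 times that of the second (1.59 to 3.58). Without the most abundant member of each cluster these became 0.641 (0.576 to 0.712) and 1.54 (0.972 to 2.55), so the first comparison turned with miR-532-5p and miR-351-5p left out.

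Of the other 116 miRNAs with a hairpin on chromosome X, 79 were above 1.5 TPM, 40 of these were lower over 1.5-fold and 8 higher, and their median log2 fold change was -0.59. Of 597 other miRNAs with a hairpin in a same-strand intron of another gene, 295 were above 1.5 TPM, 128 were lower and 38 higher, with a median of -0.46. These lists are descriptions beside the 2 lower and 1 higher of 9 members.

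**Figure D5:**
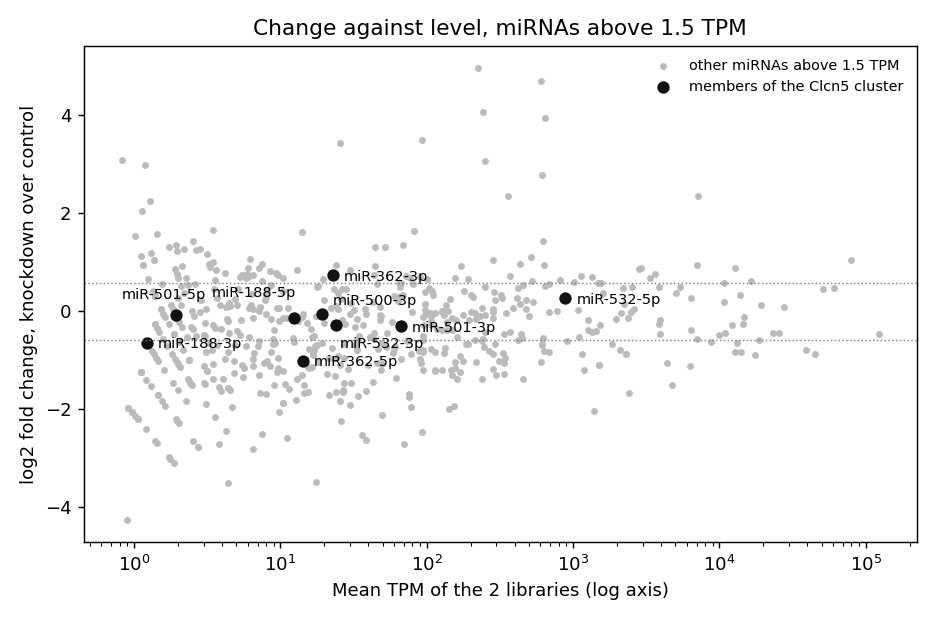
log2 fold change of TPM + 0.1, Mov10 knockdown over control, against the mean TPM of the 2 libraries (log axis), for the 607 miRNAs above 1.5 TPM (grey) with the 9 members among them (black). Dotted lines mark 1.5-fold, and of the members only miR-362-3p lies above the upper line and miR-362-5p and miR-188-3p below the lower one.

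The 3 miRNAs whose pair of levels lay nearest to that of miR-532-5p, by Euclidean distance of log2 TPM over the 2 libraries, were miR-30a-3p (780 TPM in both libraries, distance 0.319), miR-322-5p (810 and 1226 TPM, 0.336) and miR-100-5p (634 and 985 TPM, 0.346). Of these, miR-322-5p also belongs to a chromosome X cluster. With 2 libraries the likeness describes level more than pattern.

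Cultures of SPCs contain feeder fibroblasts, and miRNAs listed for either cell type were measured in the same libraries. The libraries do not show which cells a listed miRNA came from, so the sums below do not measure cell content. All 10 miRNAs listed for fibroblasts were detected, with a summed level of 74120 TPM in the control and 96006 TPM in the knockdown. miR-10b-5p was 43283 and 59217 TPM of these, and the sum of the other 9 was 1.19 times as high in the knockdown. A single miRNA of this list was higher over 1.5-fold and none lower, and the median log2 fold change was 0.30. Of the 10, 2 were below 0 (miR-214-3p at -0.42 and miR-145a-5p at -0.20). Of 15 germ and stem cell miRNAs listed, 14 had an entry and none was at 0 reads, and their sum was 165413 and 131940 TPM. miR-182-5p made up 142065 and 103395 TPM of this, and without it the direction of the sum turned, from 23348 to 28546 TPM. The largest rise in TPM among these 13 was that of miR-34c-5p, from 9034 to 16687 TPM, and 10 of the 13 had a log2 fold change below 0. Of the 14, 7 were lower and 2 higher over 1.5-fold, the median log2 fold change was -0.55, and the 3 above 0 were miR-34c-5p (0.89), miR-221-3p (0.88) and miR-222-3p (0.24). The members of each list thus went both ways. The part of the cell mixture in the values of the cluster was not tested. Fewer cells of a type and less RNA per cell cannot be told apart here. The 5 blood cell miRNAs listed summed to 176 and 34.7 TPM, mostly miR-142a-5p. miR-106a-5p was in the germ and stem cell list and also in the miR-106a-363 cluster.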

How the data were processed

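Of the series, the small RNA libraries of control and Mov10 knockdown SPCs were used, 1 for each group, and the 6 RNA-seq and 3 CLIP-seq samples were not used here. Per the paper's methods, the authors controlled read quality in KASAVA 1.8, removed adaptors and rRNA with fastx_toolkit 0.0.13.2, and aligned the rest to miRBase 21.0 without mismatch with CLC Genomics Workbench 5.5. The handling of reads that match more than 1 hairpin is not given in the sources used here. The counts deposited for each mature miRNA are not normalized. They also deposited TPM, which the authors obtained by dividing the counts by a library total. That total was worked out here as reads divided by TPM. The methods speak of triplicate samples, and it is not stated whether they were pooled.

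From the deposited counts, the reads of all 1096 miRNAs were compared by an exact binomial test (two-sided, conditional on both library totals). With no residual degrees of freedom, the quasi-likelihood test of edgeR could not be fitted. Arms and hairpins were compared by Fisher's exact test. Adjustment was by Benjamini-Hochberg at 0.05. Fold changes used a pseudocount of 0.1 TPM, and ratios with intervals used none. Intervals are exact (Clopper-Pearson, Poisson, conditional odds ratio) or Wilson, at 95%, and cover counting error only. Reads carry no molecular identifiers, so duplicates of a molecule count as separate reads. Intervals can therefore be too narrow and p-values too small. All member entries are named, beside the 3 miRNAs nearest to the highest member. The members and lists were chosen with earlier results of these data known. Hairpins were placed with RefSeq on GRCm38, which located 1089 of the 1096 miRNAs. The tests were tried on simulated independent Poisson reads, without duplicates or replicate variation. That trial does not show how the tests behave in real libraries. Python 3.11.15, scipy 1.17.1, pandas 2.3.3, numpy 2.4.6, matplotlib 3.10.9, R 4.3.3 and edgeR 4.0.16 (for TMM factors) were used.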

Additional observations from a re-analysis of the deposited data

How the results depend on the processing

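No paired analysis was possible because control and knockdown are 1 library each, which also leaves no library to drop. Depth limits the members with few reads in the knockdown library most. The cause of the changes below was not tested, other than where fewer members or arms enter by construction. The log2 fold change of the summed cluster was 0.20. It was 0.26 with the miRNA reads of each library as the total, 0.42 with TMM factors, 0.45 with median ratio scaling, -1.52 with 1 common total for both libraries and -0.18 without miR-532-5p. These scalings move all miRNAs by 0.07, 0.22, 0.25 and -1.72, the last by leaving out the correction for depth. TMM factors or median ratio scaling would thus turn the sign of the -0.18 without miR-532-5p. Against the main log2 ratio of 0.08, the comparison with the miR-322 cluster became -0.64 without the top member of each, and that with the miR-106a-363 cluster became 0.62 against 1.23.

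Of single members, 1 common total turned miR-532-5p to -1.45 and miR-362-3p to -0.97. miR-500-3p turned to 0.0051, 0.16 and 0.19 with miRNA reads, TMM factors and median ratio scaling. With the last 2, miR-501-5p turned to 0.12 and 0.16 and miR-188-5p to 0.076 and 0.11. None of these 3 members had passed the test.

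The main count was 2 members reduced and 1 raised over 1.5-fold. Reduced members numbered 1 with TMM factors, median ratio scaling, a pseudocount of 0.5 or 1 TPM or a 2-fold threshold. They also numbered 1 with a minimum of 10 TPM or a minimum of 1.5 TPM in both libraries. With no minimum they numbered 3, and the added member was miR-500-5p. It had 0 knockdown reads, so its change rests on the pseudocount and no fold is given for it. With arms summed per hairpin, reduced members numbered 0. With 1 common total, 9 were reduced and 0 raised. Raised members numbered 0 with a 2-fold threshold or arms summed. The number of differing hairpin pairs was 1, and 4 with the leading arm only. The 2 hairpins with differing arm shares numbered 2 in both alternatives run. The counts without a pseudocount, the adjustment over all neighbouring pairs and the adjustment of arm shares over the members alone were added after seeing the data.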
